A study of Homo sapiens with 18 samples.

Results

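The 10 members described here are transcription regulators of the lung epithelial lineage and its progenitors: NKX2-1, SOX2, SOX9, FOXA1, FOXA2, GATA6, ETV4, ETV5, ID2 and HOPX. They were picked by name from 61541 genes listed in the count tables by a rule that uses no measured value. The RNA came from A549, an established line of human lung adenocarcinoma of alveolar epithelial origin (wild type by its labels), grown with or without the short-chain fatty acid salt sodium propionate (SP) at 5 mM. In the first experiment, SP 3 h and SP 24 h were compared with an untreated control of 24 h. In the second, SP 3 days and SP 12 days were compared with an untreated control of 3 days. Each of the 6 groups held 3 libraries, numbered 1 to 3, so 18 libraries were analysed. The control of the 3 h libraries was collected at 24 h and that of the 12 days libraries at 3 days, so that at these times SP and time in culture cannot be told apart. The study names the libraries of the first experiment biological replicates, without saying whether they came from separate cultures, and the labels do not say it for either experiment. The p-values measure the spread between these libraries only.

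In the developing lung, NKX2-1 marks the respiratory part of the foregut and later switches on surfactant genes. SOX2 marks the proximal airway progenitors, whereas SOX9, ID2, ETV4 and ETV5 mark the distal tip progenitors, where ETV4 and ETV5 are induced by FGF signalling through ERK. The forkhead factors FOXA1 and FOXA2 and the zinc finger factor GATA6 act in the endoderm before and during airway and alveolar differentiation, and HOPX is a homeodomain-like protein of alveolar type I cells. The study asked how propionate changes the epithelial state of lung cancer cells.

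The RefSeq promoter table (GRCh38.p14) held entries for 6 of the 10 members: NKX2-1, SOX2, FOXA1, GATA6, ID2 and HOPX. No entry was used for SOX9, FOXA2, ETV4 and ETV5. The upstream windows of 3 members that rose at 12 days of SP and of 1 that fell at that time are shown, so that the sequence before their starts can be compared. Each is read 5′ to 3′ on the gene's strand, ends at or shortly before the annotated start, and has its CpG dinucleotides in capitals. The NKX2-1 window (chr14:36520287-36520482, minus strand) has 196 bases and 15 CpG. The windows of SOX2 (chr3:181711675-181711924, plus strand), GATA6 (chr18:22169339-22169588, plus strand) and FOXA1 (chr14:37595250-37595499, minus strand) have 250 bases each and 20, 16 and 26 CpG. The NKX2-1 and FOXA1 windows lie inside the longer gene models of GENCODE, outside annotated untranslated regions, and that of FOXA1 overlaps an exon of another FOXA1 transcript. The GATA6 window overlaps an exon of the antisense GATA6-AS1 and that of SOX2 lies within the long non-coding gene SOX2-OT.
NKX2-1: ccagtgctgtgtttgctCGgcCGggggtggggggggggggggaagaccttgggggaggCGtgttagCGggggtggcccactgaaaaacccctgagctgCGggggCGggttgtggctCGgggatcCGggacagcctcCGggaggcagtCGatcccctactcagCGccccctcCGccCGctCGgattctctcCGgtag
SOX2: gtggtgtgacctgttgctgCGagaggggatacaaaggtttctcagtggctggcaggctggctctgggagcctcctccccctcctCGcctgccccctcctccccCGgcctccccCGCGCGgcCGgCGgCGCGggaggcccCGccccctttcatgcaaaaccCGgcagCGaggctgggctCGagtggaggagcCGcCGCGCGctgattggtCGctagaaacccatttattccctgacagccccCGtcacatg
GATA6: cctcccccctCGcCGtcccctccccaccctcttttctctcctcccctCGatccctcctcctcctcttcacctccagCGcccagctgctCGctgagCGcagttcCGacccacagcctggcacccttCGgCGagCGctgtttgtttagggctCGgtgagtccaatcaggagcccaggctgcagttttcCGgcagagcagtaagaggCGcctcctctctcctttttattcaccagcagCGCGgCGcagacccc
FOXA1: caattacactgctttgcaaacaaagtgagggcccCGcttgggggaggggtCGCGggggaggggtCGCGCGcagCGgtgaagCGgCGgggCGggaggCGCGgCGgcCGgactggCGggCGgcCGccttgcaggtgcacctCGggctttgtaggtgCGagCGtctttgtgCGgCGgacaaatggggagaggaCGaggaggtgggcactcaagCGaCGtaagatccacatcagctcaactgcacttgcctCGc

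Over the full 250 bases before the start, the ID2 window held the most CpG of the 6 members (29) and the windows of HOPX held 8 and 9. The median of all 35114 RefSeq windows was 11. Windows with at least as many CpG as FOXA1 made up 19.6% of all, and the shares were 32.4% for SOX2, 36.8% for the first NKX2-1 window and 41.0% for GATA6. A second, downstream NKX2-1 start had 7 CpG in its window. The letters of 4 short motifs were searched on both strands, and no motif contains another. The forkhead motif was spelled TGTTTAC in this search. For GATA factors such as GATA6 the letters AGATAA were used. The letters of the ETS motif were CCGGAAG throughout. For NKX2-1 the search used CACTCAAG instead. The second NKX2-1 window held 1 forkhead and 1 GATA match, and the FOXA1 window above held 1 NKX2-1 match. These motifs occurred in 2.98%, 9.17%, 8.52% and 0.598% of all windows in the order given. The remaining windows of the 6 members held no match, which says only that these letters are not there.

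Total counts per library were between 14187401 and 43765330, and no pair of replicates was closer than sampling noise would allow. Markers of epithelial cells (KRT8, KRT18, KRT19, EPCAM and CDH1) summed to 6000 to 15400 CPM (counts scaled to library size) over the 18 libraries, and those of endothelial cells, leukocytes and red cells to at most 2.88, 1.44 and 0.222 CPM. The 5 epithelial markers summed to 6850 to 8370 CPM in control 24 h, 6670 to 8460 CPM in SP 3 h and 12300 to 13900 CPM in SP 24 h, and to 6000 to 7730 CPM in control 3 days, 11700 to 12500 CPM in SP 3 days and 11000 to 15400 CPM in SP 12 days. The 6 fibroblast markers (COL1A1, COL1A2, COL3A1, DCN, LUM and PDGFRA) were also higher with SP, at 6.78 to 22.4 CPM in control 24 h, 19.1 to 39.1 in SP 3 h and 62.7 to 90.7 in SP 24 h. They were at 15.4 to 16.4 CPM in control 3 days, 63.6 to 74.1 in SP 3 days and 36.1 to 65.2 in SP 12 days. Among them DCN was at 0 in every library of control 24 h, SP 3 h, SP 24 h and control 3 days, and COL1A2 in every library of SP 3 h and of the second experiment. The part of these shifts in the results was not tested. In such bulk libraries, fewer cells with a transcript and less of it per cell cannot be told apart.

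Levels per length of exon (RPKM, reads scaled to exon length and library size) spread over 3 orders of magnitude among the detected members, as the plot of levels shows. In control 3 days ETV4 (34.3 ± 2.33 RPKM, SD, n = 3) and FOXA2 (32.8 ± 1.04) were highest, and their ranges overlapped. ETV5 (13.4 ± 0.494), SOX9 (12.3 ± 0.688) and ID2 (11.6 ± 0.248) followed, each overlapping its neighbour. FOXA1 (10.1 ± 0.577), SOX2 (8.36 ± 0.999) and GATA6 (2.33 ± 0.202) each lay below the member before them without overlap. NKX2-1 was at 0.0132 ± 0.0229 RPKM and HOPX at 0. In SP 12 days the first 4 were SOX9 (20.0 ± 3.21), FOXA2 (19.5 ± 4.44), SOX2 (12.7 to 26.4) and ETV4 (16.5 ± 2.95), each overlapping the next. In control 24 h the order was ID2 (21.6 ± 6.06), FOXA2 (21.3 ± 2.62), ETV4 (16.3 ± 2.69), SOX9 (13.0 ± 5.84), ETV5 (7.96 ± 1.94) and SOX2 (7.40 ± 0.744), with each pair of neighbours overlapping. FOXA1 (5.39 ± 1.40) and GATA6 (1.83 ± 0.299) lay below them without overlap.

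**Figure D1:**
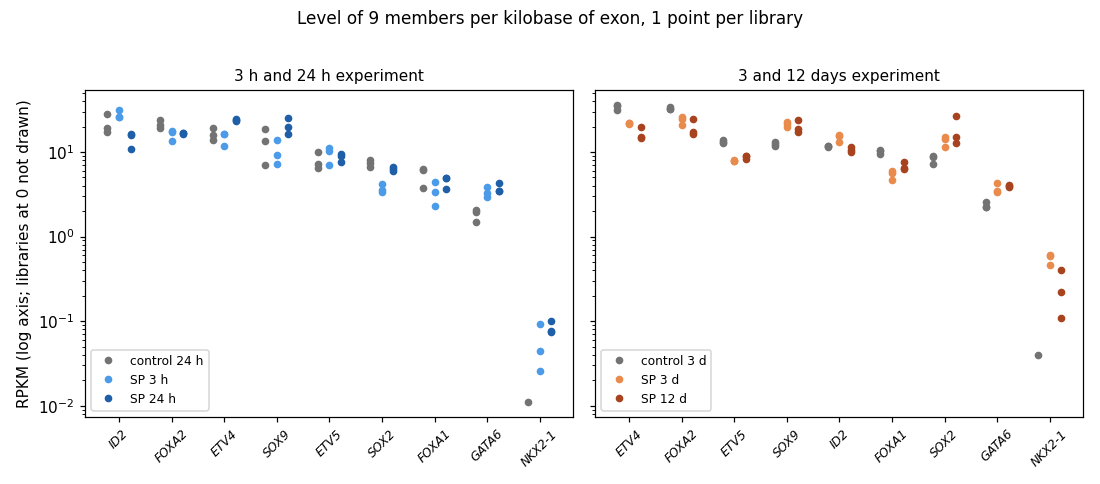
Level of 9 members in RPKM (log axis) in each library of the 3 h and 24 h experiment (left) and the 3 and 12 days experiment (right), ordered by the control mean, with 1 point per library and libraries at 0 left out. NKX2-1 lies below all other members in every group, at 0.245 ± 0.149 RPKM in SP 12 days against 3.97 ± 0.147 for GATA6, the next above it.

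At 3 days, 4 of the 9 tested members rose with SP (NKX2-1, SOX9, GATA6 and ID2) and 4 fell (FOXA1, FOXA2, ETV4 and ETV5), and only SOX2 did not pass the test. A member is said to have risen or fallen at an adjusted p under 0.05 in edgeR's quasi-likelihood test. Of all 17775 genes tested, 25.2% rose and 23.3% fell. SP and control libraries did not overlap for any of these 9 members, as was the case for 61.2% of all genes tested. NKX2-1 alone passed the study's stricter call (at least 2-fold at an adjusted p under 0.0001), which 8.44% of genes did. NKX2-1 passed the filter on low counts only through the SP groups, so its count in these tallies was bound to lie on the higher side. On leaving out library 1 or 3 of control 3 days or of SP 3 days, its adjusted p was 1.33e-04 to 2.845e-04 and the stricter call was lost.

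At 12 days, NKX2-1, SOX2, SOX9 and GATA6 rose and FOXA1, FOXA2, ETV4 and ETV5 fell, while ID2 did not pass. Over all genes 26.4% rose and 23.4% fell. Libraries did not overlap for 8 of the 9 members, against 55.9% of all genes. ETV4 was past the study's call, as were 9.11% of genes. Without library 1 of SP 12 days it fell by 0.99 on the log2 scale, just short of it, and without library 2 NKX2-1 was past it too (adjusted p = 4.74e-05). The 3 days and 12 days comparisons share their control libraries and are not independent.

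At 3 h, GATA6 rose and SOX2 fell among 8 tested members, while 7.39% of 17377 genes rose and 4.11% fell. Libraries did not overlap for 3 members (SOX2, FOXA2 and GATA6), and for 27.3% of all genes. No member was past the study's call with edgeR, and neither was any gene (0.00%), although 4367 genes and 4 members (SOX2, FOXA1, FOXA2 and GATA6) had an unadjusted p under 0.05. DESeq2 placed 415 genes past it, among them 1 member, SOX2. At 24 h, GATA6 and ETV4 rose, where 16.8% of genes rose and 12.0% fell, and libraries of 4 members (FOXA2, GATA6, ETV4 and ID2) did not overlap, against 44.4% of all genes. In the fit without a replicate block none of the 8 members fell with edgeR at 24 h, with FOXA2 and ID2 lower at an unadjusted p under 0.05 and 1 member, ID2, lower with DESeq2. With the replicate number as a block over all groups of the experiment, edgeR placed ID2 among the falls and ETV4 no longer among the rises (adjusted p = 0.0486 and 0.0588). With the block in a fit of the 2 groups alone, ETV4 and SOX9 were among the rises and ID2 among the falls (adjusted p = 0.0147, 0.0497 and 0.0105). The study's call held for 0.685% of genes at 24 h and for no member with edgeR, with 4 members at an unadjusted p under 0.05, whereas GATA6 was past it with DESeq2.

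**Figure D2:**
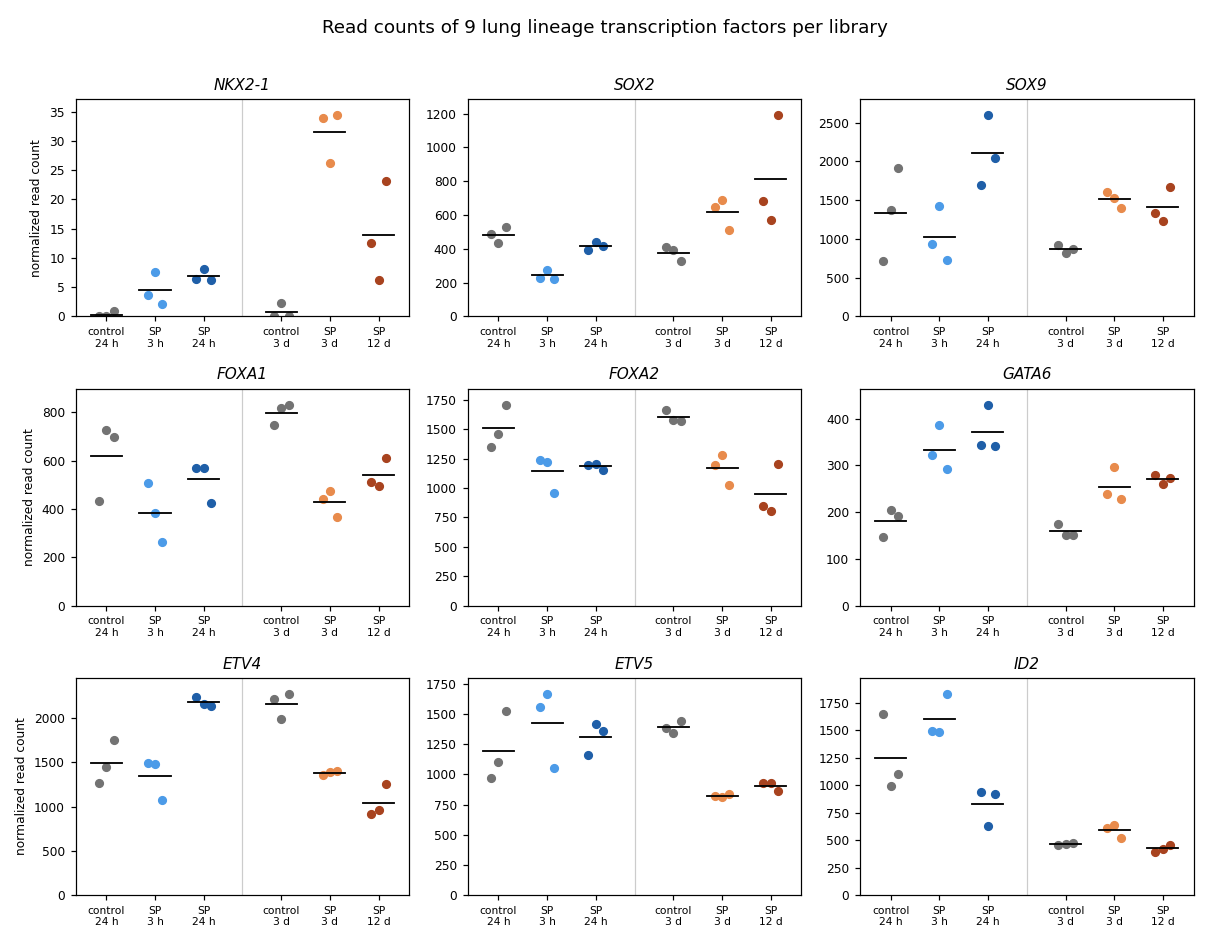
Normalized read count of 9 members in each library (points, replicates 1 to 3 from left to right) with the group mean (bar) for both experiments, each panel starting at 0. The GATA6 libraries with SP lie above their controls in both experiments, ETV4 lies above its control in SP 24 h (2137 to 2240.2 against 1266 to 1754) and below it in SP 3 days (1356 to 1404 against 1997 to 2275).

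NKX2-1 (ENSG00000136352, chromosome 14, 36516392 to 36521149, minus strand), the master regulator of the respiratory lineage, was all but silent without SP. Its 3 control 24 h libraries held 0, 0 and 1 reads and its control 3 days libraries 0, 2 and 0. SP 3 h libraries held 2, 9 and 2 reads and SP 24 h libraries 6, 14 and 7. SP 3 days libraries held 31, 24 and 32 reads and SP 12 days libraries 11, 7 and 29. Every SP library lay above every control library of its experiment. Corrected for depth, the summed reads were 12.4 times those of control at 3 h (13 against 1 reads, 95% counting interval 1.86 to 527), 18.1 times at 24 h (27 against 1, 2.98 to 741), 47.2 times at 3 days (87 against 2, 12.7 to 396) and 21.6 times at 12 days (47 against 2, 5.67 to 184). These intervals cover counting error only. The gene did not pass the filter on low counts in the first experiment. Tested without that filter, its adjusted p was 0.0898 at 3 h and 0.00606 at 24 h. In the second it rose at 3 days (adjusted p = 1.60e-05) and 12 days (adjusted p = 4.80e-04). Normalized for depth, every SP 12 days library lay below every SP 3 days library, without the difference passing the test (log2 fold change −1.14 ± 0.40 SE, adjusted p = 0.0959), and without library 3 of SP 12 days it passed (−1.80, adjusted p = 0.00139). The exons of NKX2-1 share 1033 bases (32.6% of its exon length) with SFTA3 on the same strand and 402 with the antisense NKX2-1-AS1. SFTA3 had no read in any library and NKX2-1-AS1 at most 2, so how reads in the shared bases were assigned bears on the NKX2-1 counts.

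HOPX (ENSG00000171476, chromosome 4, 56647989 to 56681877, minus strand) had 0 reads in all 18 libraries. With 396517102 reads counted in all, a count of 0 allows up to 0.00757 CPM over the 18 libraries, and up to 0.211 CPM in the shallowest one. No change of HOPX with SP was detectable at this depth.

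NKX2-1 and FOXA1 lie 1068 kb apart on chromosome 14, and the stretch from one to the other was chosen for description after the data had been seen. Of its 21 annotated genes, 7 were tested in the second experiment. NKX2-1, NKX2-8 and PAX9, a homeobox and a paired box gene that follow NKX2-1, rose at both 3 and 12 days. NKX2-8 had 44 to 56 reads per control 3 days library, 106 to 116 with SP 3 days and 99 to 117 with SP 12 days, and rose by 1.34 ± 0.16 on the log2 scale at 3 days (adjusted p = 3.96e-06) and 1.07 ± 0.16 at 12 days (adjusted p = 3.80e-05). PAX9 rose by 0.82 and 0.98 (adjusted p = 1.51e-04 and 2.15e-05). NKX2-8 had also risen at 3 h and 24 h (1.54 and 1.53, adjusted p = 0.0156 and 0.00736), as had PAX9 (0.97 and 0.67, adjusted p = 0.0125 and 0.0294). At the other end, FOXA1 fell, and so did SLC25A21, a mitochondrial carrier of 217 reads in all 18 libraries (−1.92 and −1.25, adjusted p = 0.00502 and 0.0268). SLC25A21 had fallen at 24 h as well (−2.63, adjusted p = 0.00364) and was at −0.12 at 3 h (adjusted p = 0.898). MIPOL1 and SLC25A21-AS1 did not pass at either time. So 3 of the 7 tested genes rose and 2 fell at each of these times. Of all genes tested, 25.2% rose and 23.3% fell at 3 days, and 26.4% and 23.4% at 12 days. NKX2-1 passed the filter on low counts only through the SP groups and was bound to lie among the rises. Whether the changes follow position was not tested.

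**Figure D3:**
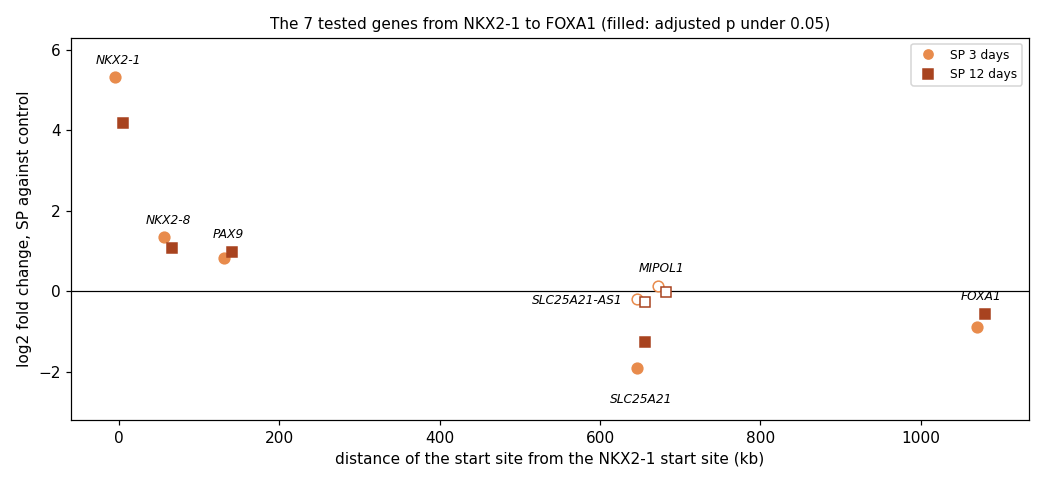
Log2 fold change of the 7 tested genes from NKX2-1 to FOXA1 at SP 3 days (circles) and SP 12 days (squares) against the distance of each start site from that of NKX2-1 in kb, with filled symbols for an adjusted p under 0.05 and the symbols of a gene set slightly apart. The 3 genes nearest to the NKX2-1 start site lie above 0, and SLC25A21 and FOXA1 below it. The fitted value of NKX2-1 rests on 2 control reads and depends on the prior count.

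SOX2 (ENSG00000181449, chromosome 3, 181711925 to 181714436, plus strand), the proximal progenitor factor, was lower with SP at 3 h and higher at 12 days. Normalized read counts, scaled to a common library size within an experiment, were 488, 433 and 530.2 in control 24 h, 229.5, 274 and 222 in SP 3 h and 392, 438 and 417 in SP 24 h. All SP 3 h libraries lay below all control libraries, and SP 24 h overlapped the control. SOX2 fell by 1.00 on the log2 scale at 3 h (SE 0.14, adjusted p = 0.00223) and was at −0.22 ± 0.13 at 24 h (adjusted p = 0.236), and the rise from SP 3 h to SP 24 h passed the test (0.78 ± 0.13, adjusted p = 0.00442). In the second experiment control libraries were at 411, 395 and 326, SP 3 days at 647, 689 and 511, and SP 12 days at 680.3, 573 and 1189.9. Both SP groups lay above the control, and library 3 of SP 12 days was the highest by far. SOX2 was at 0.71 ± 0.27 at 3 days (adjusted p = 0.0614) and rose by 1.11 ± 0.27 at 12 days (adjusted p = 0.00844). Without library 3 of SP 12 days the rise was 0.71 (adjusted p = 2.47e-05). At 3 days DESeq2 and a fit of the 2 groups alone placed SOX2 past the threshold (adjusted p = 0.0419 and 3.00e-05).

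SOX9 (ENSG00000125398, chromosome 17, 72121020 to 72126416, plus strand), which marks distal tip progenitors, rose at 3 and 12 days. Its normalized counts were 919.9, 823 and 872 in control 3 days, 1607, 1525 and 1403 in SP 3 days and 1338, 1232 and 1667 in SP 12 days. Every SP library lay above every control, and the log2 fold changes were 0.79 ± 0.11 (adjusted p = 1.52e-05) and 0.70 ± 0.11 (adjusted p = 5.10e-05). The first experiment gave a wide spread, with 717, 1367 and 1911 in control 24 h, 933, 1423 and 731 in SP 3 h and 1693, 2594 and 2048 in SP 24 h. Groups overlapped at both times (−0.37 ± 0.36, adjusted p = 0.591, and 0.66 ± 0.36, adjusted p = 0.192). With the replicate number as a block in a fit of the 2 groups alone, SOX9 passed at 24 h (0.74, adjusted p = 0.0497).

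GATA6 (ENSG00000141448, chromosome 18, 22169589 to 22202528, plus strand), a zinc finger factor of endoderm and alveolar epithelium, was the only tested member that rose at all 4 times. Normalized counts were 147, 204 and 192 in control 24 h, 321, 386 and 292 in SP 3 h and 343, 429.9 and 341 in SP 24 h. They were 175, 152 and 151 in control 3 days, 239, 297 and 228 in SP 3 days and 279, 259.9 and 274 in SP 12 days. No SP library lay within the range of its controls. The rises were 1.84-fold at 3 h (log2 0.88 ± 0.18, adjusted p = 0.0121), 2.05-fold at 24 h (1.04 ± 0.18, adjusted p = 0.00244), 1.59-fold at 3 days (0.67 ± 0.13, adjusted p = 3.93e-04) and 1.70-fold at 12 days (0.76 ± 0.12, adjusted p = 1.08e-04). At 3 h the call was lost without library 2 of SP 3 h (0.76, adjusted p = 0.0558). The difference between 24 h and 3 h was 0.16 (95% confidence interval −0.23 to 0.54), and between 12 and 3 days 0.09 (−0.17 to 0.35).

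The antisense ENSG00000266283 shares 321 exon bases with GATA6 and the antisense transcript GATA6-AS1 shares 94, and since no strand setting is stated, reads there cannot be told apart. GATA6-AS1 had 23 reads over the 3 control libraries of 3 days, 70 with SP 3 days and 137 with SP 12 days, and rose by 1.70 ± 0.36 (adjusted p = 0.00100) and 2.43 ± 0.33 (adjusted p = 1.82e-05). At 3 h it was at −0.14 ± 0.49 (15 reads against 16 in control, adjusted p = 0.906) and at 24 h at 1.14 ± 0.41 (52 against 16, adjusted p = 0.0657). Neither passed, at few reads. GATA6-AS1 passed the filter on low counts only through SP libraries in both experiments. Its rises therefore depend in part on the filter.

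FOXA1 (ENSG00000129514, chromosome 14, 37589552 to 37596059, minus strand) and FOXA2 (ENSG00000125798, chromosome 20, 22580998 to 22585455, minus strand), paired forkhead pioneer factors of the endoderm, fell at 3 and 12 days. FOXA1 was at 746, 816 and 831 normalized counts in control 3 days, at 442, 475 and 369 in SP 3 days and at 509.95, 497 and 612 in SP 12 days. FOXA2 was at 1662, 1576 and 1572 in control 3 days, at 1196, 1279 and 1029 in SP 3 days and at 849.5, 806 and 1201 in SP 12 days. Neither gene had an SP library within the control range. FOXA1 fell by 0.90 on the log2 scale at 3 days (SE 0.11, adjusted p = 7.46e-06) and by 0.56 at 12 days (SE 0.11, adjusted p = 4.99e-04). FOXA2 fell by 0.46 (SE 0.13, adjusted p = 0.00934) and by 0.75 (SE 0.13, adjusted p = 2.66e-04), and its call at 3 days was lost without library 3 of SP 3 days (−0.38, adjusted p = 0.0508).

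In the first experiment both forkhead factors had negative log2 fold changes that did not pass in the main fit. FOXA1 was at 434, 726 and 698 in control 24 h, at 507, 382 and 264 in SP 3 h and at 571, 570.3 and 425 in SP 24 h, and both SP groups overlapped the control (−0.70 ± 0.27 and −0.25 ± 0.26, adjusted p = 0.133 and 0.496). FOXA2 was at 1346, 1463 and 1709 in control 24 h, at 1241, 1222 and 959 in SP 3 h and at 1193, 1202 and 1156 in SP 24 h. All 6 SP libraries of FOXA2 lay below the controls (−0.40 ± 0.13 and −0.35 ± 0.13, adjusted p = 0.0838 and 0.0747). Once a trend with GC content and exon length was removed from each library, FOXA2 passed at both times (−0.49 and −0.61, adjusted p = 0.00434 and 6.33e-04). At 3 h FOXA2 also passed with DESeq2 (−0.43, adjusted p = 0.0406), and FOXA1 passed without the filter on low counts (−0.715, adjusted p = 0.0486).

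**Figure D4:**
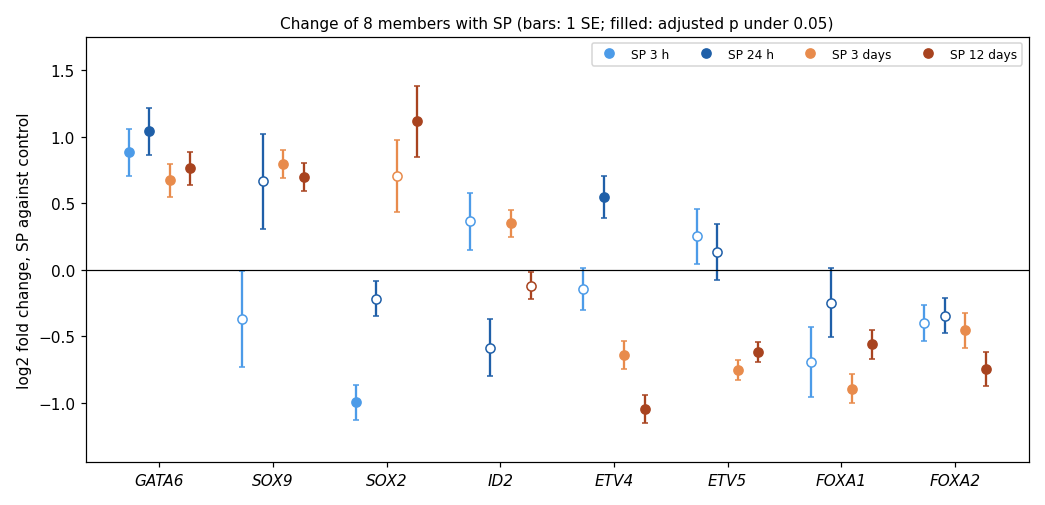
Log2 fold change (points) ± 1 SE (bars) of 8 members against control at each of the 4 times with SP, filled where the adjusted p was under 0.05. GATA6 lies above 0 at all times (0.67 to 1.04) and FOXA1 and FOXA2 lie below it, while SOX2, SOX9, ID2, ETV4 and ETV5 lie on both sides.

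ETV4 (ENSG00000175832, chromosome 17, 43527844 to 43579620, minus strand) and ETV5 (ENSG00000244405, chromosome 3, 186046314 to 186110318, minus strand), ETS factors of the PEA3 group that FGF signalling induces, fell at 3 and 12 days. ETV4 was at 2218, 1997 and 2275 normalized counts in control 3 days, at 1356, 1398 and 1404 in SP 3 days and at 917, 959 and 1258 in SP 12 days. ETV5 was at 1380.3, 1344 and 1445 in control 3 days, at 819, 813 and 840.3 in SP 3 days and at 924.5, 931 and 859 in SP 12 days. All SP libraries of both genes lay below all controls. ETV4 fell by 0.64 on the log2 scale at 3 days (SE 0.11, adjusted p = 1.12e-04) and by 1.05 at 12 days (SE 0.11, adjusted p = 7.83e-07). ETV5 fell by 0.75 (SE 0.08, adjusted p = 9.39e-07) and by 0.62 (SE 0.08, adjusted p = 6.24e-06).

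At 24 h the direction of ETV4 was the opposite. It was at 1266, 1454 and 1754 in control 24 h, at 1496.5, 1484 and 1070.3 in SP 3 h and at 2240.2, 2162 and 2137 in SP 24 h. All SP 24 h libraries were above the control, while SP 3 h overlapped it (−0.14 ± 0.16, adjusted p = 0.640). ETV4 rose by 0.55 ± 0.16 at 24 h (adjusted p = 0.0282), and with the replicate number as a block the value was 0.55 (adjusted p = 0.0588), while it passed with the block in a fit of the 2 groups alone (0.55, adjusted p = 0.0147). The call was also lost on leaving out library 1 or 2 of control 24 h or any SP 24 h library (0.41 to 0.56, adjusted p = 0.0706 to 0.115) and with the trend of GC content and length removed (0.17, adjusted p = 0.204). ETV5 was at 967, 1099 and 1524 in control 24 h, at 1555, 1666 and 1050.2 in SP 3 h and at 1159, 1416 and 1358 in SP 24 h, and all groups overlapped (0.25 ± 0.21 and 0.13 ± 0.21, adjusted p = 0.526 and 0.658).

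The change at 24 h minus the change at 3 days was tested in a fit of all 18 libraries, which called 7.19% of 16654 genes. It was 1.15 ± 0.20 for ETV4 (adjusted p = 0.00322), 0.84 ± 0.23 for ETV5 (adjusted p = 0.0365) and −0.98 ± 0.25 for ID2 (adjusted p = 0.0267). ETV4 kept its call without any 1 library of the 4 groups. ETV5 lost it on leaving out any of 10 of these 12 libraries and ID2 any of 7, with adjusted p up to 0.0943. For SOX2 the difference was −0.97 ± 0.30 (adjusted p = 0.0616), and for SOX9, FOXA1, FOXA2 and GATA6 the adjusted p was 0.232 to 0.870. The experiments differ in their control time as well as in the time with SP.

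Of 20 further genes of FGF and ERK signalling (receptors, ligands, feedback inhibitors and ETV1), 17 were tested. At 12 days 7 rose and 6 fell, at 3 days 6 rose and 6 fell, at 24 h 5 rose and 2 fell, and at 3 h 4 rose and 3 fell. Of all genes tested, 26.4% rose and 23.4% fell at 12 days, and 25.2% and 23.3% at 3 days. At 24 h these shares were 16.8% and 12.0%, and at 3 h 7.39% and 4.11%. The median log2 fold change at 12 days was −0.0015, beside −0.0037 over all genes tested, and at 24 h it was 0.25 beside −0.0099. The largest rises at 12 days were of IL17RD, an inhibitor of FGF signalling (70.2 ± 15.3 normalized counts in control and 275 ± 51.3 in SP 12 days, log2 1.99, adjusted p = 1.52e-07), of SPRED3, an inhibitor of ERK activation (1.52, adjusted p = 3.17e-08), and of the receptor FGFR1 (1.16, adjusted p = 4.37e-08). The largest falls were of DUSP6, an ERK phosphatase and transcriptional target of ERK (343 ± 10.2 to 175 ± 46.6, −0.97, adjusted p = 7.46e-05), of the receptor FGFR4 (−0.78, adjusted p = 5.84e-06) and of SPRY2, a feedback inhibitor (−0.66, adjusted p = 0.00413). IL17RD and SPRED3 also rose at 3 h (1.21 and 1.50, adjusted p = 0.00394 and 0.0118), while DUSP6 and SPRY2 also fell (−0.59 and −0.81, adjusted p = 0.0253 and 0.00360). The ligand FGF10 had no read in any of the 6 groups.

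ID2 (ENSG00000115738, chromosome 2, 8678845 to 8684461, plus strand), an inhibitor of basic helix-loop-helix factors that is expressed in distal tip progenitors, changed direction between times. Its normalized counts were 1645, 994 and 1102 in control 24 h, 1491, 1489 and 1831 in SP 3 h and 935, 632 and 924 in SP 24 h. SP 3 h overlapped the control and SP 24 h lay below it. The log2 fold changes were 0.36 ± 0.21 at 3 h (adjusted p = 0.342) and −0.59 ± 0.22 at 24 h (adjusted p = 0.0681), and with the replicate number as a block ID2 passed at 24 h (−0.58, adjusted p = 0.0486), as it did with DESeq2 (−0.60, adjusted p = 0.0388) and without library 2 or 3 of control 24 h (−0.74 and −0.68, adjusted p = 0.0482 and 0.0457). With the block in a fit of the 2 groups alone, ID2 passed at 24 h too (−0.59, adjusted p = 0.0105). From SP 3 h to SP 24 h it fell by 0.95 (SE 0.22, adjusted p = 0.0150).

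In the second experiment ID2 was at 452, 467 and 470.3 in control 3 days, 612, 639 and 517 in SP 3 days and 395, 418 and 460.03 in SP 12 days. SP 3 days lay above the control and SP 12 days overlapped it. ID2 rose by 0.35 ± 0.10 at 3 days (adjusted p = 0.00923), which was lost without library 2 of SP 3 days (0.28, adjusted p = 0.0657), and was at −0.12 ± 0.10 at 12 days (adjusted p = 0.331). The antisense ID2-AS1, which shares 145 exon bases with ID2, rose at 24 h (0.99 ± 0.18, adjusted p = 0.00374), when the value of ID2 was negative, and at 3 days (0.89 ± 0.15, adjusted p = 1.43e-04).

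Between the times with SP, SOX2, ETV4 and ID2 differed from 3 h to 24 h (3 of 8 tested members, and 20.1% of all genes), ETV4 by 0.69 ± 0.16 (adjusted p = 0.0151). From 3 h to 24 h, the ETV4 call was lost without library 2 of SP 24 h (0.70, adjusted p = 0.0502) and the ID2 call without that library or library 3 of SP 3 h (−0.78 and −0.85, adjusted p = 0.0591 and 0.0530). ETV4 and ID2 differed from 3 to 12 days (2 of 9, and 8.10% of all genes). ETV4 fell by 0.41 (SE 0.11, adjusted p = 0.0286) and ID2 by 0.47 (SE 0.10, adjusted p = 0.00903) between these times. The ETV4 call was lost on leaving out any SP 3 days library or library 1 or 2 of SP 12 days (−0.34 to −0.44, adjusted p = 0.0646 to 0.137). The ID2 call was lost without library 2 of SP 3 days or library 1 of SP 12 days (−0.42 and −0.44, adjusted p = 0.0597 and 0.0550). Of the SP 3 days and SP 12 days libraries, library 3 of SP 12 days changed the counts of called genes most when left out. Without it 2456 genes were higher and 2617 lower at 12 than at 3 days, of 18067 tested, against 792 and 648 with it. That library was not tested as standing apart. Without any other single library of these groups, 302 to 481 genes were higher and 254 to 428 lower. Without library 3, 5 members differed: NKX2-1, SOX9 (−0.25, adjusted p = 0.0247), FOXA2 (−0.51, adjusted p = 1.28e-04), ETV4 and ID2.

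ID proteins are targets of BMP signalling, and of 18 further genes of the ID family and the BMP pathway 16 were tested in the second experiment. At 12 days 7 rose and 6 fell, and at 3 days 6 rose and 6 fell. Of 17 tested in the first, 4 rose and 1 fell at 24 h, and 1 rose and 1 fell at 3 h. Among all genes tested 26.4% rose and 23.4% fell at 12 days, and 25.2% and 23.3% at 3 days. The shares were 16.8% and 12.0% at 24 h and 7.39% and 4.11% at 3 h. Medians were 0.05 at 12 days and 0.04 at 24 h, beside −0.0037 and −0.0099 over all genes. The ligand BMP7 went from 36 reads over the 3 control libraries to 572 in SP 12 days (log2 3.85, adjusted p = 1.40e-09), and the secreted BMP antagonist NOG from 8 to 117 reads (13.2 times, 95% counting interval 6.49 to 31.3). BMP7 needed SP libraries to pass the filter on low counts in both experiments. It had 15, 11 and 10 reads in control 3 days and 10, 9 and 6 in control 24 h. Its rises therefore depend in part on the filter. NOG passed that filter in the second experiment only through SP libraries. GREM1, another secreted antagonist, rose by 1.84 (adjusted p = 8.36e-08). The largest falls were of the signal transducer SMAD1 (−0.72, adjusted p = 5.34e-04), the inhibitory SMAD6 (−0.57, adjusted p = 4.38e-05) and ID1 (3110 ± 309 to 2202 ± 28.6 normalized counts, −0.50, adjusted p = 9.78e-05), a close relative of ID2.

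Of 19 genes of differentiated lung epithelium, such as the surfactant proteins and the markers of alveolar type I cells, 7 were tested in each experiment and most were near silent. At 12 days 4 rose and 1 fell, at 3 days 4 rose, and at 24 h 2 rose and 1 fell. Beside this, 26.4% of all genes tested rose and 23.4% fell at 12 days. At 3 days 25.2% rose and 23.3% fell, and at 24 h 16.8% and 12.0%. At 3 h the 7 log2 fold changes lay between −0.44 and 2.77 and none passed with edgeR. LAMP3, and at 24 h SFTPC as well, passed the filter on low counts only through SP libraries, so these rises, which are both of those at 24 h, could not have been falls. Medians over the genes that passed were 0.55 at 12 days, 0.50 at 3 days and 0.46 at 24 h, beside −0.0037, −0.0242 and −0.0099 over all genes. The list medians include LAMP3 and, at 24 h, SFTPC. How far these list medians lie above those of all genes therefore depends in part on the filter. LAMP3, of the lamellar bodies of alveolar type II cells, had 4, 2 and 4 reads in control 3 days, 39, 41 and 42 in SP 3 days and 40, 40 and 82 in SP 12 days, which is 14.6 times the control at 12 days (95% counting interval 7.76 to 31.1). LPCAT1, an enzyme of surfactant lipid synthesis, rose by 1.60 at 12 days (adjusted p = 2.29e-10) and the caveolar protein CAV1 by 1.07 (adjusted p = 4.13e-04), although CAV1 had fallen at 24 h (−0.57, adjusted p = 0.0114), while AGER, a receptor of alveolar type I cells, fell by 0.50 (adjusted p = 0.0274). The surfactant gene SFTPC, a target of NKX2-1 that is named here after its values were seen, had 0, 0 and 1 reads in control 24 h and 16, 31 and 22 in SP 24 h, and 5, 2 and 0 in control 3 days, 20, 9 and 7 in SP 3 days and 1, 13 and 7 in SP 12 days. SP 24 h libraries of SFTPC lay above all controls, as did those of SP 3 days, while SP 12 days overlapped the control.

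Of 33 other transcription factors of lung epithelium and foregut, 30 were tested in the second experiment. At 3 days 6 rose and 12 fell, and at 12 days 7 rose and 10 fell. Of 29 tested in the first experiment, 8 rose and 2 fell at 24 h and 4 rose and 5 fell at 3 h. Shares of all genes that rose and fell were 25.2% and 23.3% at 3 days and 26.4% and 23.4% at 12 days. They were 16.8% and 12.0% at 24 h and 7.39% and 4.11% at 3 h. Medians were −0.04 at 3 days and −0.19 at 12 days, beside −0.0242 and −0.0037 over all genes. The largest rises at 3 days were of the forkhead factor FOXP2 (13 reads over the 3 control libraries and 49 with SP, log2 1.99, adjusted p = 0.00647, a gene that passed the filter only through SP libraries), of SOX4 (3628 ± 264 to 6436 ± 1053 normalized counts, 0.83, adjusted p = 0.00145) and of GATA2 (0.80, adjusted p = 1.60e-04). Among the largest falls were those of SPDEF, a factor of goblet cells (933 ± 95.9 to 190 ± 7.5, −2.30, adjusted p = 7.61e-08), and of HNF4G, known from gut epithelium (−2.02, adjusted p = 6.18e-07).

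**Figure D5:**
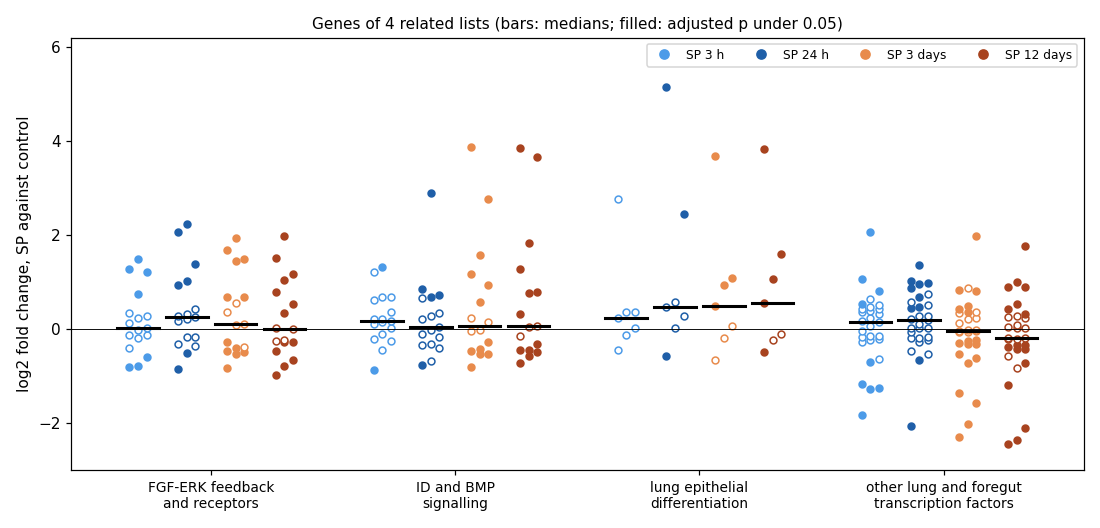
Log2 fold change against control of each tested gene of 4 lists (points, filled for an adjusted p under 0.05) at each of the 4 times with SP, with list medians as bars. Genes of the first 3 lists reach higher rises than falls, up to 5.15 for SFTPC at 24 h, whose control holds 1 read, and the other transcription factors reach −2.45 at 12 days. LAMP3, SFTPC at 24 h, and NOG and FOXP2 in the second experiment passed the filter on low counts only through SP libraries. Their points could not have been falls. BMP7 also needed SP libraries to pass it.

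For the members tested in both experiments, likeness was measured as Pearson's r of log2 CPM over the 18 libraries, centred within each experiment, among 16654 genes. The libraries fall into 6 groups, so r mostly reflects shared differences between groups, and it is given as a description. GATA6 was most like NOVA2 (r = 0.967), MKNK2 (0.964) and PGPEP1 (0.961), and SOX9 most like CYP26B1 (0.964), FOSL2 (0.956) and SEMA4F (0.950). ETV4 was most like FCGBP (0.960), TAFAZZIN (0.943) and the receptor FGFR4 of the FGF list (0.942). FOXA2 was most like SNRNP70 (0.952), FZD8 (0.948) and P4HTM (0.927), FOXA1 most like ZNF839 (0.938), SEMA4C (0.912) and NOVA1 (0.908), and ETV5 most like MIDN (0.933), KLHDC4 (0.932) and GRIPAP1 (0.930). For SOX2 (CNIH3, 0.864, and ENSG00000287156, 0.855, among the 3 closest) and ID2 (H3-3B, 0.870, AP4B1, 0.864, and MALSU1, 0.859) the closest genes were less alike. Among the members themselves FOXA1 and FOXA2 had r = 0.723 over the 18 libraries, and 0.810 and 0.716 within the first and the second experiment. ETV4 and ETV5 had r = 0.635, with 0.390 and 0.785 within the experiments.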

How the data were processed

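A549 RNA was measured in 18 libraries. The authors made paired-end libraries with the NEBNext Ultra kit, aligned reads to GRCh38 with STAR 2.7.9a, counted them per Ensembl gene with featureCounts and deposited the counts without normalization, in 2 tables of 9 libraries. Strandedness and the handling of reads that fit several genes are not given in the sources used here. The members, lists, tests and alternatives were chosen with earlier results of these data known.

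Each table was fitted with all 9 libraries in edgeR 4.0.16 (R 4.3.3): filterByExpr with a minimum count of 10 (17377 and 17775 genes kept), TMM factors (0.957 to 1.04) and a robust quasi-likelihood test of the group, with p-values adjusted by Benjamini-Hochberg over all genes tested. Standard errors follow from its F statistic. DESeq2 1.42.0, with its own size factors, other scalings and filters, a replicate block, a correction for GC content and exon length, and leaving out each library were alternatives. Normalized counts are reads divided by the TMM-adjusted library size and multiplied by the mean unadjusted library size of a table. RPKM used exon lengths of GENCODE, a newer annotation than the authors'. Ratios of summed reads have exact 95% binomial counting intervals, and the limit of a count of 0 is 3 reads. Counting error alone makes these intervals and limits. Depth was 14187401 to 43765330 counts per library. The procedure was tested on simulated data.

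Deviations of libraries with the same replicate number correlated at 0.499, 0.170 and 0.504 between control 24 h and SP 24 h. Every pair was above 0.1, so these were taken as paired, from the data and not from a label. The main fit has no block, and blocked values stand beside the 24 h results where a call changed. A block over all 9 libraries also spans SP 3 h, whose same-number correlations with control 24 h were −0.086, −0.028 and −0.592. The block in 2 groups alone covers only the groups taken as paired. In the other comparisons not every pair was above 0.1.

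All 10 members are described in every comparison. Of each list, up to 3 of the largest rises and 3 of the largest falls are named at the time where most of it passed. Some genes that these rules would name are not reported here.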

Additional observations from a re-analysis of the deposited data

Results flagged for a closer look

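The following 8 differences between times were past the threshold in a test of the difference itself. From SP 3 h to SP 24 h, SOX2 rose by 0.78 and ETV4 by 0.69 on the log2 scale, and ID2 fell by 0.95 (adjusted p = 0.00442, 0.0151 and 0.0150). From SP 3 days to SP 12 days, the differences were −0.41 for ETV4 and −0.47 for ID2 (adjusted p = 0.0286 and 0.00903). Between experiments, the change at 24 h exceeded that at 3 days by 1.15 for ETV4 and 0.84 for ETV5, and was −0.98 relative to it for ID2 (adjusted p = 0.00322, 0.0365 and 0.0267). No group had more than 3 libraries, so no library was tested as standing apart.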

How the results depend on the processing

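At 3 h, 2 members fell with DESeq2, 2 without a filter and 2 with the GC and length trend removed, and 1 was past the study's call with DESeq2 and 1 without a filter. Leaving out 1 library gave 0 to 1 rises. At 24 h, 1 member rose with the replicate block and 1 with the trend removed, 3 without a filter and 3 with the block in 2 groups alone (1 to 2 on leaving out 1 library), 1 fell with DESeq2, 1 without a filter, 1 with the replicate block, 1 with the block in 2 groups alone and 2 with the trend removed (0 to 1 on leaving out 1 library), and 1 was past the study's call with DESeq2 and 1 without a filter. Between 3 h and 24 h, 1 to 3 members differed on leaving out 1 library. The study's call held for 0 to 1 members at 3 days and 0 to 2 at 12 days on leaving out 1 library, and for 2 at 12 days without a filter. Between 3 and 12 days, 4 differed without a filter, 1 with the 2 groups alone and 0 to 5 on leaving out 1 library.

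Of the members' log2 fold changes over these alternatives, 669 kept direction and side of the threshold, 23 were past it only in the alternative, 38 lost it and 8 turned direction. Directions turned only for differences that had not passed: ETV5 at 24 h (−0.0305 to 0.3385 on leaving out 1 library), FOXA2 from 3 h to 24 h (−0.0609 to 0.1107, and −0.1134 with the trend removed), ETV5 from 3 h to 24 h (−0.301 to 0.0094), and, in the change at 24 h minus that at 3 days, SOX9 (−0.4727 to 0.2132) and FOXA2 (−0.0184 to 0.1909, and −0.021 with the trend removed). SOX2 passed that test with DESeq2 (−0.96, adjusted p = 0.0290). The cause was not tested. That test, its alternatives and the block in 2 groups alone were chosen after seeing the data. NKX2-1 at 12 days could not be fitted in 2 groups alone, since it failed the filter there.

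Genes past the study's call numbered 0 at 3 h with edgeR, against 415 with DESeq2, 408 without a filter and 85 with the trend removed. At 24 h they were 119, against 1192, 1131 and 395, with 2 under the replicate block, 4 in 2 groups alone, 186 with both and 1 to 58 on leaving out 1 library. Genes that differed between 3 and 12 days numbered 792 higher and 648 lower, against 2456 and 2617 without library 3 of SP 12 days. Low counts limit what can be said of HOPX, NKX2-1 and SFTPC. Apart from ETV4 and ID2 at 24 h (0.55 and −0.58, adjusted p = 0.0588 and 0.0486) and SOX9 with the block in 2 groups alone, the replicate block changed no member's call.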
